A study of Homo sapiens with 2 samples.

Results

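The HOXB cluster is an array of 10 homeobox genes on the long arm of chromosome 17: HOXB1, HOXB2, HOXB3, HOXB4, HOXB5, HOXB6, HOXB7, HOXB8, HOXB9 and HOXB13. These are 10 of the 19821 protein-coding genes considered on chromosomes 1 to 22 and X. The cluster was chosen by its calls, as the HOX cluster with called transcription starts, so that its having calls is a description and not a finding, and no test was run on it. The window ran from 50 kb below the lowest to 50 kb above the highest HOXB gene end (chr17:48478526-48778750, hg38, 300.2 kb) and held 11 of the 26395 deposited calls. PRO-cap labels RNA that nuclei are still making in a run-on reaction and reads where each such RNA begins. The series has 1 group, HUDEP-2 cells of wild-type genotype with 2 biological replicates, and no treatment or other cell type. HUDEP-2 is an immortalised line of human erythroid progenitors, and 1 line stands here for that cell type.

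The deposited calls name no replicate and carry a score of 0 throughout. No strength, depth or spread between replicates can therefore be given, and a gene without a call can still be transcribed below the unknown threshold of the calling. Of 9 erythroid marker genes, all 9 had a called start, among them GATA1, KLF1 and EPOR. The T cell markers CD3D, CD3E and CD3G and the monocyte markers CD14, CSF1R and LYZ had none, and of the stem and progenitor markers CD34, AVP and CRHBP none had a called start, with a call elsewhere at 1 of the 3. The hepatocyte markers ALB and APOA1 had no called start, with a call in or near 1 of them. The neuronal marker SYN1 had a called start and GAD1 had none, although a call lay in or near it. Of all protein-coding genes 40.9% had a called start by the rule given below. The marker sets are small, and no cell identity is read from them.

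HOX genes encode homeodomain transcription factors that set position along the body axis of the embryo. Within a cluster they stand in the order in which they are used, from the anterior genes with low numbers to the posterior genes with high numbers, and all HOXB genes are transcribed from the reverse strand. In the blood system HOX genes are known from stem and progenitor cells, where they bind DNA together with PBX and MEIS partners, and their transcription is kept on by Trithorax-type and kept off by Polycomb-type chromatin regulators.

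Called starts lay at the anterior side of the array, at HOXB2 and HOXB4. A called start here is a reverse-strand call within 500 bp of the annotated start of the gene, which for HOXB genes is its upper coordinate. HOXB2 and HOXB4 had such a call, 2 of the 10 members (20%), against 8111 of 19821 protein-coding genes (40.9%). For protein-coding genes of unknown strand an inward call at either end was counted, and 6791 of the 8111 had a known strand. Nothing is read from these shares, since calls chose the cluster. Counting any call inside the gene or within 1000 bp of it, 3 of 10 members had one, with HOXB3 added, against a background of 53.3%. HOXB1, HOXB5, HOXB6, HOXB7, HOXB8, HOXB9 and HOXB13 had none. Within 200 bp of the annotated start only HOXB4 had a call, 1 of 10 members against 37.9% of protein-coding genes. Within 1000 bp it was 2 of 10 again, against 43.4%. An inward call at either end of the gene, whatever its strand, was found at 3 of 10 members, against 41.4%.

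**Figure D1:**
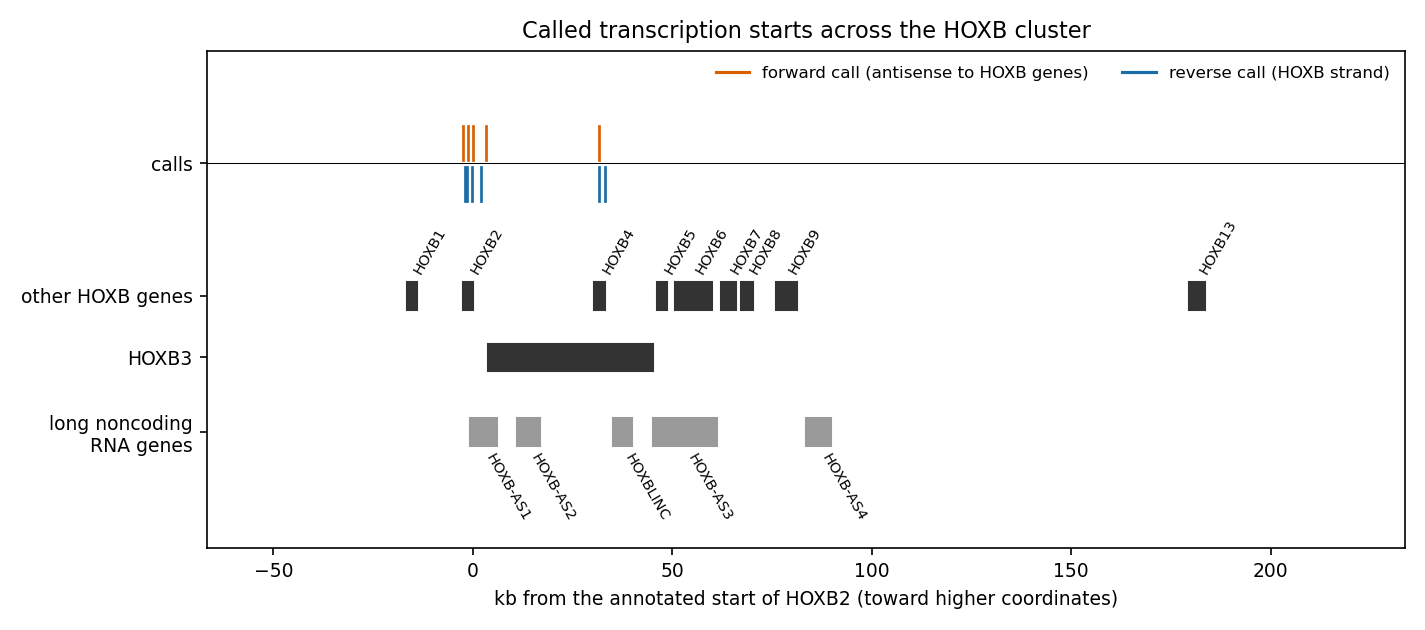
Called starts over the HOXB window, plotted as kb from the annotated start of HOXB2. Ticks above the line are forward calls and ticks below it reverse calls, dark boxes are the 10 HOXB genes and grey boxes the HOXB-AS and HOXBLINC long noncoding RNA genes. All 11 calls lie between a point 81 bp below the lower end of HOXB2 and the start of HOXB4, with none over HOXB1 or from HOXB5 to HOXB13.

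All 11 calls lay within 35.6 kb, inside the array, and the flanks held none. They were 6 reverse calls, on the strand of the HOXB genes, and 5 forward calls, antisense to them. They formed 2 groups when calls no more than 5 kb apart were joined. The group at HOXB2 held 8 calls in 5.87 kb, with 4 on each strand. The group at HOXB4 held 3 calls in 1.39 kb, with 2 reverse and 1 forward. Groups of 8 or more calls were 133 of 11627 in all (1.14%), and groups of 3 or more were 3634 (31.3%). The joining distance was chosen after the calls had been seen. The cluster itself was chosen by its calls, so nothing is read from these shares.

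HOXB2 (chr17:48542655-48545109), whose product acts in patterning the hindbrain, held more calls than any other member. There were 4 inside the gene and 6 inside it or within 1000 bp. On its own strand, reverse calls lay at 48544878, 48543565 and 48543273, which is 231, 1544 and 1836 bp into the gene. The call 231 bp into the gene is the one counted as its start. Forward calls lay at 48542574, 81 bp below the lower end of the gene, at 48543955, 1154 bp inside the annotated start, and at 48545222, 113 bp upstream of it. Calls of both strands thus lay side by side over the gene. Among all protein-coding genes, 617 of 19821 (3.11%) had 6 or more calls inside or within 1000 bp. Among the 1864 genes of at most 3000 bp, the length class of HOXB2, 17 had as many (0.912%), and their median was 0 calls. Nothing is read from these shares, since the cluster was chosen by its calls and HOXB2 was the member with the most.

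HOXB-AS1 (chr17:48544351-48551241), a long noncoding RNA gene of the forward strand that overlaps HOXB2 head to head, shared this group of calls. Its called start was the forward call at 48543955, 396 bp upstream of the annotated start and inside HOXB2. This call lies within the 500 bp rule but beyond the alternative distance of 200 bp. The gene held 4 calls, namely the reverse calls at 48544878 and 48547136 and the forward calls at 48545222 and 48548445. The reverse call at 48547136 lay inside HOXB-AS1 and 2027 bp upstream of HOXB2, outside every HOXB gene. The RefSeq promoter window of HOXB-AS1 (GRCh38.p14, chr17:48544101-48544400, forward strand, 250 bases before to 50 after the annotated start) is shown because it lies between the calls at 48543955 and 48544878 and holds neither:
HOXB-AS1 promoter: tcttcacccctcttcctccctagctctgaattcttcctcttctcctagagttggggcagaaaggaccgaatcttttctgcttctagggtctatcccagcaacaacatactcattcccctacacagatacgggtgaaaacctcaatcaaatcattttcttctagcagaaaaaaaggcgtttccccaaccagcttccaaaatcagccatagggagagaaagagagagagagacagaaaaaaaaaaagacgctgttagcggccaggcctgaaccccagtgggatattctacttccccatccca

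The nearest call stood 146 bp before this window. The window had 5 CpG dinucleotides, against a median of 14 over 34961 RefSeq promoter windows of this length (quartiles 4 and 28), and a GC share of 46.7% against a median of 58.7%. It held none of the motifs searched on both strands, so that no base stands in capitals. The TATA box TATAAA was missing, which 11.5% of all these windows hold. The motif CCAAT, bound by NF-Y, is found in 34.6% of windows, and the GC box GGGCGG, bound by SP and KLF factors, in 45.0%. The GATA factor motif AGATAA, searched since GATA1 is the chief erythroid factor of that family, is found in 10.3%, and CCACACCC, a motif of the erythroid factor KLF1, in 3.29%. The E-box CACGTG is found in 7.27% and the cyclic AMP response element TGACGTCA in 1.85%. The joint motif of HOX and PBX proteins was searched as TGATTNAT, found in 2.82% of windows. It was also searched in the wider form TGATNNAT, which covers every match of the narrower one and is found in 7.37%. The wider form was added after the sequences had been seen.

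HOXB4 (chr17:48575507-48578350), known for expanding blood stem cells when it is overexpressed, held 3 calls. The reverse call at 48578210 lay 140 bp inside the annotated start and was counted as its start. The other two formed a divergent pair deeper in the gene, a reverse call at 48576817 and a forward call at 48576852, which is 1533 and 1498 bp inside the annotated start. Among all protein-coding genes 4342 (21.9%) had 3 or more calls inside or within 1000 bp, and among those of at most 3000 bp 188 of 1864 had (10.1%). These shares too are a description only, since calls chose the cluster.

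HOXB3 (chr17:48548870-48590241) spans HOXB4 in the gene table, since its longest transcripts start above that gene, and the 3 calls inside HOXB3 were those of HOXB4. No reverse call lay within 500 bp of the annotated start of HOXB3 at 48590241, and the nearest call was that at 48578210, 12031 bp away. At the lower end of the gene, its 3' side, a forward call at 48548445 lay 425 bp outside and pointed into it. This call runs antisense to HOXB3 and was not counted as its start. Whether the calls inside HOXB4 start HOXB3 transcripts as well cannot be told apart here, because the gene table gives only the outer ends of each gene.

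**Figure D2:**
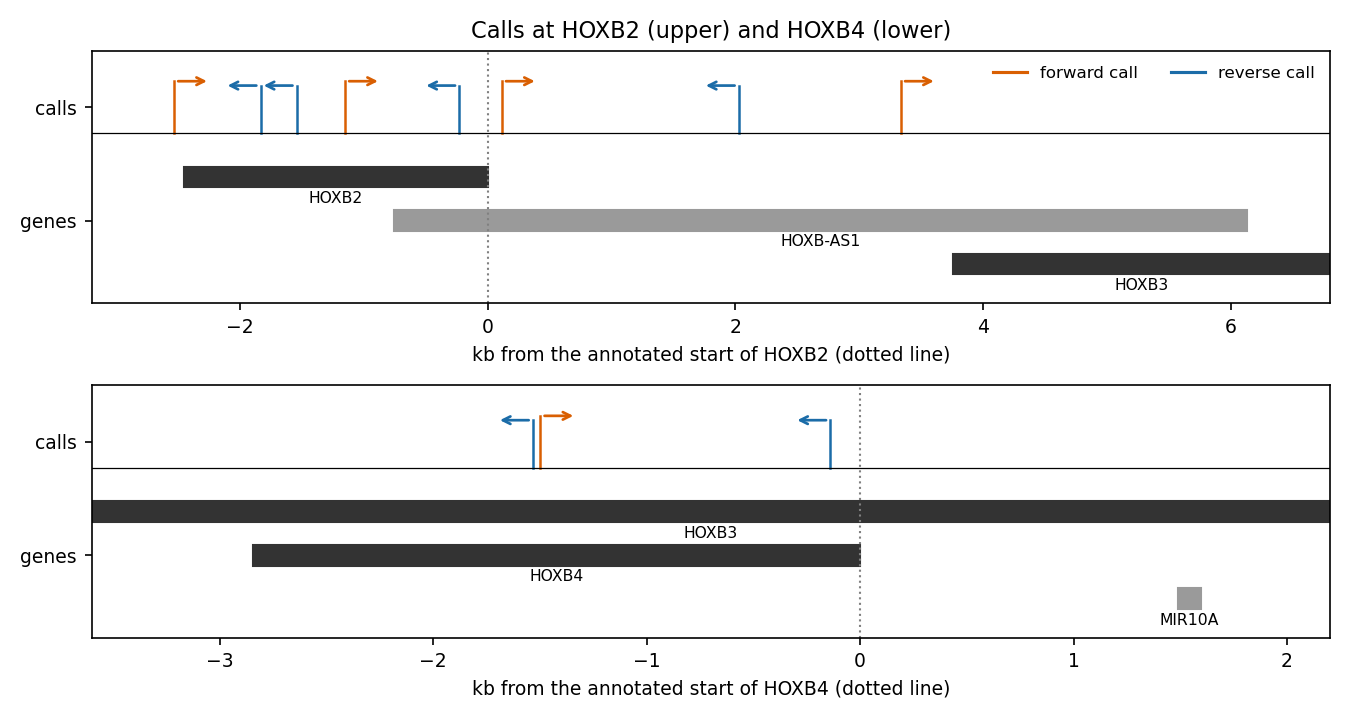
Calls at HOXB2 (upper panel) and HOXB4 (lower panel) as kb from the annotated start of each gene (dotted line). Arrows point in the direction of transcription, orange for forward and blue for reverse calls, and boxes are genes. The reverse calls counted as starts lie 231 bp (HOXB2) and 140 bp (HOXB4) inside the gene, and HOXB2 carries calls of both strands.

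The called starts of HOXB2 and HOXB4 lay 231 and 140 bp inside their genes. Over the 6791 protein-coding genes of known strand with a called start, the call nearest to the annotated start lay at a median of 4 bp inside (quartiles -1 and 33). In 646 of these genes (9.51%) it lay 140 bp or more to either side, and in 407 (5.99%) 231 bp or more. No test was made of this difference, since it rests on 2 genes.

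Divergent calls of the cluster were spaced closely at HOXB4 and widely at HOXB2. A divergent partner is an opposite-strand call 0 to 300 bp upstream that points the other way. Only the pair inside HOXB4 met this, at a spacing of 35 bp, so that 2 of 11 calls had a partner (18.2%), against 44.0% of all calls. Both calls of a pair are counted and the window was chosen for its calls, so no interval is given. Around HOXB2 the divergent neighbours stood further apart. The reverse call at 48544878 and the forward call at 48545222, on either side of the annotated start, were 344 bp apart, and the calls at 48543565 and 48543955 were 390 bp apart. With partners allowed up to 500 bp, 6 of 11 calls had one (54.5%), against 53.9% of all calls. Of 7099 forward calls with a partner within 500 bp in the whole set, the median spacing was 168 bp (quartiles 114 and 261). A spacing of 344 bp or more was seen in 12.4% and one of 35 bp or less in 2.48% of them. No call of the cluster had a convergent partner within 300 bp, against 11.1% of all calls.

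**Figure D3:**
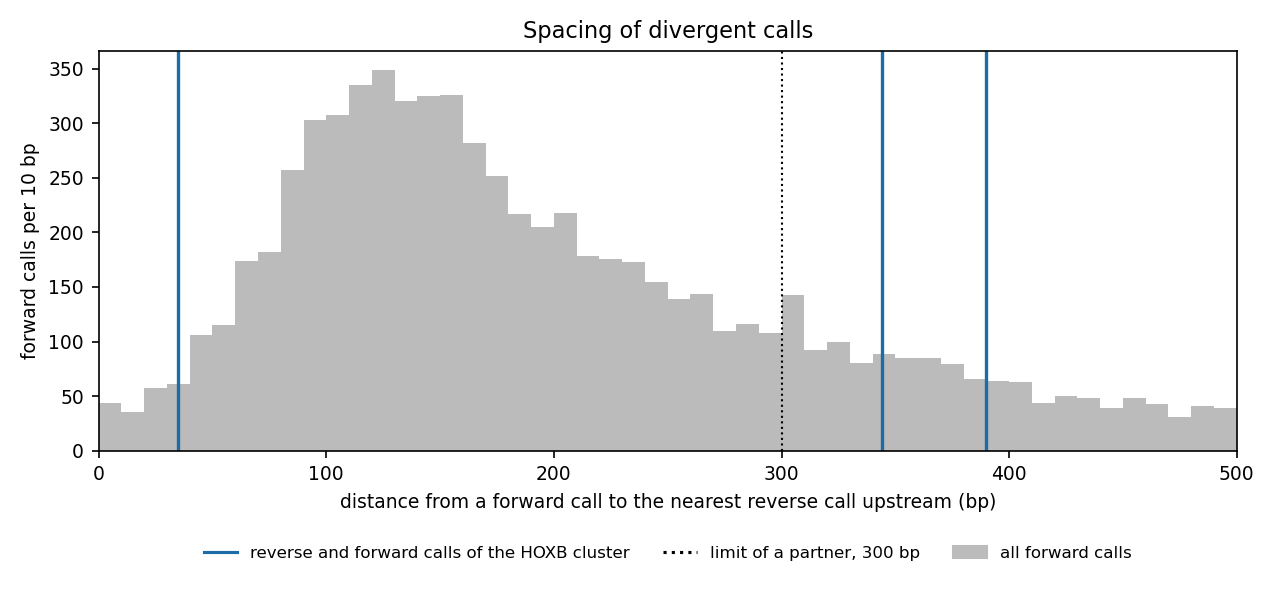
Histogram of the distance from each forward call to the nearest reverse call upstream of it, in bp, for all forward calls with one within 500 bp (grey bars, forward calls per 10 bp). Blue lines mark the spacings in the HOXB cluster, 35 bp inside HOXB4 and 344 and 390 bp at HOXB2, the last 2 beyond the 300 bp limit of a partner (dotted line).

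By place relative to all annotated genes, including noncoding ones and with either end of a gene allowed, 5 of the 11 calls were at most 500 bp from a gene end and ran inward (45.5%, against 45.8% of all calls). A further 2 pointed away from a nearby gene end (18.2% against 21.0%), 4 lay elsewhere inside genes (36.4% against 26.1%) and none lay outside genes (against 7.12%). The 5 at gene ends were the starts of HOXB2, HOXB4 and HOXB-AS1 and the forward calls at the lower ends of HOXB2 and HOXB3.

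On either side of these calls the cluster held none. HOXB1 (chr17:48528526-48531011), the most anterior member, which gives a segment of the hindbrain its identity, held no call, and the nearest call was 11.6 kb from it, at the lower end of HOXB2. HOXB1 is the one member of the 10 that matched an entry of the RefSeq promoter table, and its window (chr17:48530962-48531261, reverse strand, 250 bases before to 50 after the start) is shown as the promoter of an uncalled member. Capitals mark a match to TGATNNAT, 125 bp before the start, a form of site through which, in the mouse, Hoxb1 acts on its own promoter together with PBX, and a CCAAT motif on the opposite strand, 80 bp before the start:
HOXB1 promoter: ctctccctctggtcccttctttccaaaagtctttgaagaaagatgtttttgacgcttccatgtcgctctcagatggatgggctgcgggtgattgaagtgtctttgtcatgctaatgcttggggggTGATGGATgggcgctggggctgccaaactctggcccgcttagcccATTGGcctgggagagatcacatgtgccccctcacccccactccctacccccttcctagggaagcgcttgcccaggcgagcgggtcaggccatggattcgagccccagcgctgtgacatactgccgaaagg

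This window had 11 CpG dinucleotides and a GC share of 58.0%. None of the other 7 motif strings named above was found in it, the planned HOX and PBX form TGATTNAT among them. The wider form TGATNNAT was added after the sequences had been seen, and 7.37% of all windows hold it. CCAAT is held by 34.6%. The matches describe the letters of the window and say nothing of which factors bind it in these cells.

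Above HOXB4 no call followed for 252.8 kb, up to position 48831034. This stretch holds 6 members. HOXB5 (chr17:48591257-48593779), which marks long-term blood stem cells in the mouse, lay 13.0 kb from the nearest call, that of HOXB4. HOXB6 (chr17:48595751-48604986) lay 17.5 kb, HOXB7 (chr17:48607232-48611017) 29.0 kb, HOXB8 (chr17:48612346-48615292) 34.1 kb and HOXB9 (chr17:48621156-48626358) 42.9 kb from it. In the mouse, forced expression of Hoxb8 keeps myeloid progenitors growing. HOXB13 (chr17:48724763-48728750), a gene of the prostate and hindgut set apart from the rest of the cluster, lay 102.3 kb from the nearest call, which was the one at 48831034 beyond the window. Below HOXB2 the next call stood 435.0 kb away at 48107578. Gaps of 252.8 kb or more made up 8.69% of the 26309 gaps between neighbouring calls and those of 435.0 kb or more 5.62%, while the median gap was 1.0 kb. On chromosome 17 alone these shares were 3.98% and 2.43% of 1483 gaps. The shares count gaps and not bases, so they do not say how much of the genome lies in gaps this long. The 28.4 kb between the groups at HOXB2 and HOXB4 was a common length, reached by 32.3% of gaps.

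The noncoding genes of the array other than HOXB-AS1 had no call. HOXB-AS2 (chr17:48556157-48561977), inside the span of HOXB3, lay 7.7 kb from the nearest call and HOXBLINC (chr17:48580317-48584924), whose mouse counterpart takes part in activating Hoxb genes, 2.1 kb from the start call of HOXB4. HOXB-AS3 (chr17:48590420-48606414) lay 12.2 kb and HOXB-AS4 (chr17:48628698-48634932) 50.5 kb from a call. LINC03057, LINC02086, MIR3185 and the pseudogenes RPL9P28 and COX6B1P2, which lie between HOXB9 and HOXB13, held none either, nor did the protein-coding genes PRAC1 and PRAC2 there. MIR10A (chr17:48579838-48579947), the microRNA gene above HOXB4, lay 1.6 kb upstream of the HOXB4 start call, and MIR196A1 (chr17:48632490-48632559), above HOXB9, lay 54.3 kb from any call. The mature microRNAs are shown because the HOX clusters carry related copies of them, with the seed, bases 2 to 8, in capitals (RefSeq, GRCh38.p14):
hsa-miR-10a-5p: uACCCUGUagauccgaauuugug
hsa-miR-10a-3p: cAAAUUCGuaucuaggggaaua
hsa-miR-196a-5p: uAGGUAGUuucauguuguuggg
hsa-miR-196b-5p: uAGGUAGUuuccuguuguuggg

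The miR-196a-5p product of MIR196A1 has the same letters as that of MIR196A2 in the HOXC cluster and shares the seed AGGUAGU with miR-196b-5p of MIR196B in the HOXA cluster. MIR196A2 lay 197.2 kb and MIR196B 38.5 kb from the nearest call. MIR10A was thus the nearest of these genes to a call. It is on the reverse strand, so the HOXB4 start call lies downstream of it and does not mark its start. A call marks the start of a primary transcript, which for a microRNA can lie far from the mature sequence, so that no microRNA was called or uncalled by these distances.

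The other HOX clusters served as the closest setting for HOXB, as a description, since HOXB was chosen for its calls. In windows with the same flanks of 50 kb, the HOXB window held 11 calls, against 1 in the HOXA window, 0 in the HOXC window and 2 in the HOXD window. Per 100 kb this was 3.66 calls at HOXB, 0.483 at HOXA, 0 at HOXC and 0.983 at HOXD, with 0.901 over the spans of all chromosomes used. The contrast with HOXD rests on the flank. With flanks of 100 kb the HOXB window had 2.75 calls per 100 kb and the HOXD window 2.64, while with no flank the HOXB window had 5.49 and the HOXD window 0. None of the 29 HOX genes of the other clusters had a called start, which the choice of HOXB for its called starts already implies. The single HOXA call, forward at position 27130999 of chromosome 7, lay 242 bp outside the annotated start of HOXA4, pointed away from it and lay within the span of HOXA3. The HOXD calls, at 176080368 and 176080463 of chromosome 2, formed a divergent pair 95 bp apart inside EVX2, a homeobox gene next to HOXD13, and no HOXD gene held a call. By paralogue group, the number in a HOX gene's name, called starts were seen in groups 2 and 4, each at HOXB alone, and HOXA2, HOXA4, HOXC4 and HOXD4 had none.

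**Figure D4:**
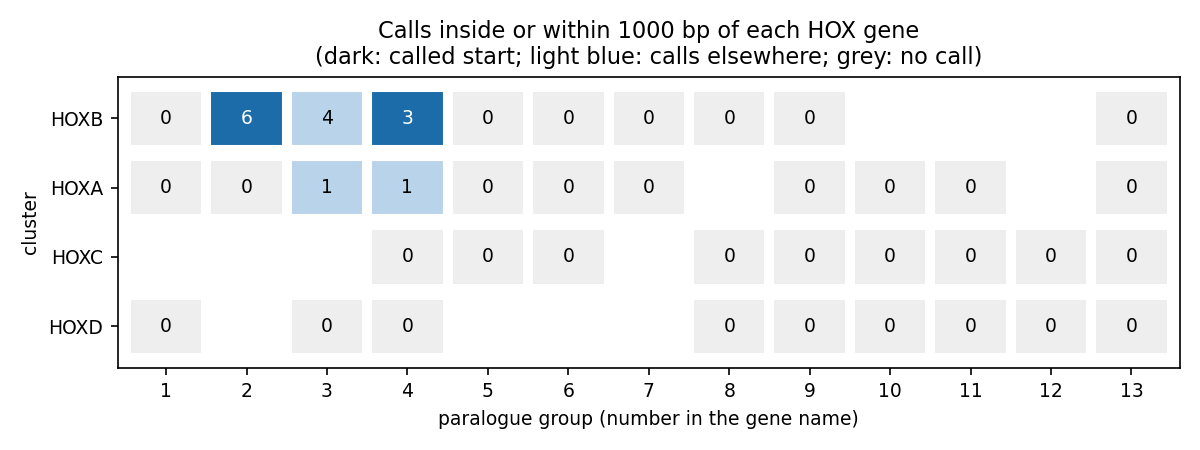
Number of calls inside or within 1000 bp of each HOX gene, by cluster (rows) and paralogue group (columns). Dark cells have a called start, light blue cells have calls elsewhere and grey cells have none. HOXB2, HOXB3 and HOXB4 hold 6, 4 and 3 calls, HOXA3 and HOXA4 share 1 call, and all other HOX genes hold 0.

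Lists of genes that work with or on HOX genes had different shares with a called start. The lists were chosen with earlier results of these data known. Their intervals are thus a description and no test against the background of 40.9%. Activators and Polycomb genes changed order with the rule. Counting any call in or within 1000 bp of the gene, Polycomb genes were at 88.5% and activators at 83.3%. Among the genes listed as DNA-binding cofactors of HOX proteins 3 of 11 had a called start (27.3%, 9.75 to 56.6, against 40.9% of protein-coding genes), namely PBX3, MEIS2 and PKNOX1. MEIS1, the cofactor best known from blood stem cells, MEIS3 and PBX2 had no call at all. The call of PBX3 lay 238 bp and that of MEIS2 433 bp outside the annotated start, while that of PKNOX1 lay 168 bp inside it. TGIF1, on the list with a homeodomain of the same class, had no called start but 13 calls in or near the gene, the most of this list. TGIF1 was named after its count had been seen.

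Among activators of HOX genes 15 of 24 had a called start (62.5%, 42.7 to 78.8, against 40.9% of protein-coding genes). These included AFF4, a scaffold of the super elongation complex, the methyltransferase subunits ASH2L and DPY30, and DOT1L, which methylates histone H3 in transcribed genes. Strand was known for 19 of the 24 activators. The others, with ASH2L, DPY30 and DOT1L among them, were counted by an inward call at either end. Strand was known for 9 of 11 cofactors, 23 of 26 Polycomb genes and 15 of 16 retinoic acid genes. AFF1 had no called start but 10 calls in or near the gene, and the homeobox genes CDX1, CDX2 and CDX4, activators of HOX genes in the embryo, had no call. Among Polycomb genes 13 of 26 had one (50%, 32.1 to 67.9, against the same 40.9%), with CBX6, CBX7 and EED among them. AEBP2, CBX2 and CBX8 had no called start but 2, 2 and 1 calls in or near the gene, and BMI1 had no call. In the retinoic acid pathway, the signal that induces anterior HOX genes in the embryo, 1 of 16 had a called start (6.25%, 1.11 to 28.3, against 40.9%), the nuclear receptor RXRA, and the enzymes ALDH1A1, ALDH1A2 and ALDH1A3 and the binding protein CRABP1 had no call. In median, the HOXB genes held 0 calls in or near the gene, the cofactors 1, the activators 2, the Polycomb genes 2 and the retinoic acid genes 0, against 1 over all protein-coding genes. Gene length was not matched in these counts, and protein-coding genes of at most 3000 bp had a median of 0. Counting any call in or within 1000 bp of the gene, 6 of 11 cofactors (54.5%), 20 of 24 activators (83.3%), 23 of 26 Polycomb genes (88.5%) and 3 of 16 retinoic acid genes (18.8%) had one, against 53.3% of protein-coding genes. The lists were compared with the background by these counts alone.

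**Figure D5:**
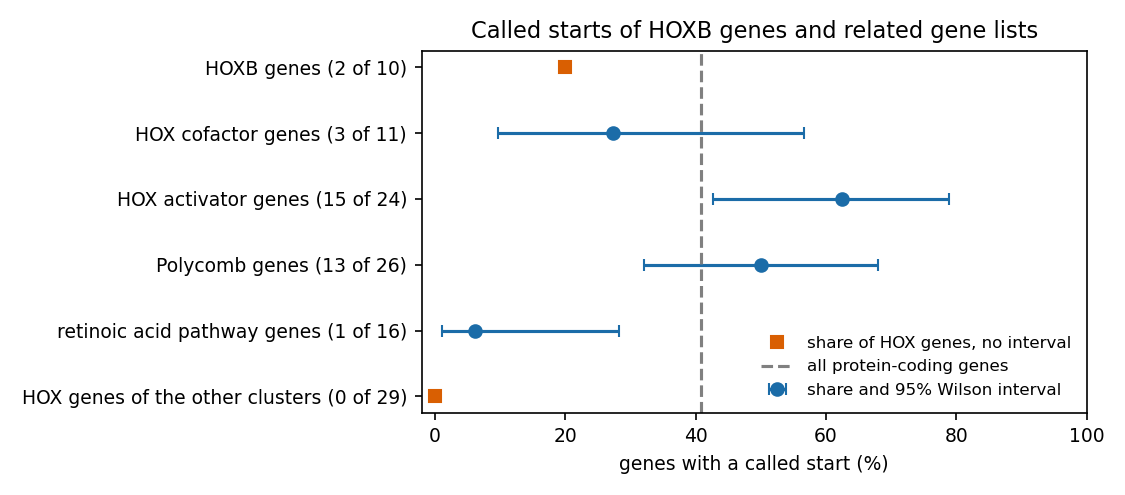
Share of genes with a called start, in percent, for the HOXB genes and the related lists (points, with 95% Wilson intervals that cover counting error only, and squares without interval for the HOX genes, whose calls chose the cluster). The dashed line is the share of all protein-coding genes, 40.9%. HOXB genes are at 20%, activators at 62.5% and the HOX genes of the other clusters at 0%.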

How the data were processed

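PRO-cap libraries of wild-type HUDEP-2 cells were made in 2 biological replicates, per the labels. Reads were processed on hg38 with tools that include deepTools 3.5.4, SAMtools 1.17, Picard and BWA 0.7.16a, per the submitters' processing notes. Not given in the sources used here is how starts were called and whether replicates were pooled for it. The authors deposited 1 list of start positions per strand, 13229 forward and 13166 reverse. Besides coordinates (other values than measurements), each call has a score, which the authors deposited as 0 throughout, so that depth and replicate error are unknown.

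The 26332 calls on chromosomes 1 to 22 and X were used, and the other 63 were left out. Genes came from the RefSeq table of GRCh38.p14, the build of hg38, printed 1-based. Strand came from the RefSeq promoter table for 79.9% of protein-coding genes. HOX genes took their known strand, which matched the table for all 20 HOX genes in it. For other genes a call at either end that pointed inward was counted. The HOXB members, gene lists and definitions were chosen with earlier results of these data known. The text names all members, the genes of the window with calls, the noncoding genes of the array, and of each list all genes on a side with 5 or fewer, otherwise the first 4 by alphabet. Some items that this names are not reported here. Alternatives were distances of 200 and 1000 bp to the gene start, partner distances of 150 and 500 bp and other flanks. Intervals are 95% Wilson intervals from SciPy 1.17.1 and cover counting error only. The gene start and divergent partner steps were run on simulated calls planted inside their limits, which checks the code only. The other steps were not tested in this way. The planned reading of the bases at each HOXB start was not run.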

Additional observations from a re-analysis of the deposited data

How the results depend on the processing

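With a distance of 200 bp instead of 500 bp to the annotated start, 1 HOXB gene kept a called start, HOXB4, at 140 bp inside, against a median of 185.5 bp over HOXB2 and HOXB4, and 1 cofactor gene instead of 3 had one. With any call in or within 1000 bp of the gene, 6 cofactor genes instead of 3, 23 Polycomb genes instead of 13, 3 retinoic acid genes instead of 1 and 2 HOX genes of the other clusters instead of 0 were counted, while the share of all protein-coding genes was 53.3% instead of 40.9%. With partners up to 500 bp, 6 instead of 2 calls of the HOXB window had a divergent partner. The HOXD window held 0 calls without flanks and 8 with flanks of 100 kb, instead of 2. In each of these cases the wider or narrower rule itself admits more or fewer calls. The 11 calls of the HOXB window were the same number with no flank and with flanks of 20 or 100 kb. Counting an inward call at either gene end, an alternative added after the data had been seen, gave 3 HOXB genes instead of 2, by the antisense call below HOXB3. No paired analysis was possible because the call lists name no replicate, and for the same reason no replicate could be left out. Calls carry no depth, so that a gene without a call cannot be told from one below the threshold.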
